A study of Homo sapiens with 8 samples.

Results

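The outermost 2 Mb of the human autosomes were examined for DNA that stayed with 3 RNA oligos. For each of the 22 autosomes the limits were the smallest start and the largest end over all 6 deposited lists of regions, and a region belonged to a chromosome end if its midpoint lay within 2 Mb of a limit. On chromosomes 13, 14, 15, 21 and 22 only the end at large coordinates was used. This gave 39 chromosome ends, 78 Mb of DNA, and 20955 of the 327994 regions of the series (327832 of them on the autosomes). The limits are those of the listed regions, so they can lie inside the last base of the chromosome. The DNA came from H1, an established line of human embryonic stem cells, was freed of RNA and was sonicated to 200 to 300 bp. Amounts of 6 to 7 µg were kept for 1 h at 37 °C with 20 pmol of a biotinylated RNA oligo or with none, in a buffer of 50 mM KCl with 5 mM MgCl2. The oligos were MEG3 TFR1, MEG3 TFR2 and, called the GATA6-AS oligo below, GATA6-AS TFR1. Complexes were taken up on streptavidin beads, and the DNA released with RNases was sequenced. The 4 groups had 2 libraries each, 8 in all, from independent experiments on the same cell line, and TFR is read here as triplex-forming region. The DNA was purified and fragmented, so chromatin, nuclear position and expression were not part of the measurement.

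Human chromosomes end in telomere repeats, inside which lie subtelomeres, patchworks of duplicated blocks shared between chromosomes, and then, on many arms, GC-rich DNA crowded with genes. Genes of these ends include the alpha-globin cluster, the telomerase gene TERT and many genes lost in terminal deletion syndromes. In an RNA-DNA triplex, an RNA strand lies in the major groove of the duplex and binds best along runs of purines on 1 DNA strand, which appear as runs of pyrimidines on the other. MEG3 is an imprinted, maternally expressed long noncoding RNA, and GATA6-AS is transcribed antisense to the gene of the transcription factor GATA6.

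As examples, 5 stretches upstream of genes are printed, each lying wholly inside a captured region, meaning a region with more signal with an oligo than without. The captured regions are wider than the printed stretches. Nor are the stretches typical: few captured regions at the ends had a midpoint within 1 kb of a listed gene start. The shares were 5.30% with the GATA6-AS oligo, 3.44% with MEG3 TFR1 and 2.70% with MEG3 TFR2. They are the 250 bases before the gene's start, 5′ to 3′ on the gene's strand, from RefSeq on GRCh38.p14 (hg38). Capitals mark the longest run of purines or of pyrimidines. GAL3ST2 (chr2:241776572-241776821, plus strand), which encodes a galactose sulfotransferase, STPG3 (chr9:137251036-137251285, plus strand), a sperm-tail repeat protein gene, and PABPN1L (chr16:88866661-88866910, minus strand), a poly(A)-binding protein gene, are those covered by regions of both MEG3 TFR1 and the GATA6-AS oligo. TEDC1 (chr14:105489605-105489854, plus strand), a gene for a centriole protein, and SHANK3 (chr22:50672573-50672822, plus strand), the gene of a postsynaptic scaffold protein, had the highest ratios among the eligible ones covered by the GATA6-AS oligo alone.
GAL3ST2: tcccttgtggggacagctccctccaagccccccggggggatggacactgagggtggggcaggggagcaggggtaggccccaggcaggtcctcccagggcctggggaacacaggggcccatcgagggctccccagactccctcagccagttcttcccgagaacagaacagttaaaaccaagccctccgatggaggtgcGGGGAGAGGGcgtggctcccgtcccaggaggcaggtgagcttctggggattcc
STPG3: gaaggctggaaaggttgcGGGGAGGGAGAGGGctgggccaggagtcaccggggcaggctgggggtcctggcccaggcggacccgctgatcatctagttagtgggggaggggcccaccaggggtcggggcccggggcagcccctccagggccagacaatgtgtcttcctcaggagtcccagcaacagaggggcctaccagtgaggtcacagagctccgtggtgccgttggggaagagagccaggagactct
PABPN1L: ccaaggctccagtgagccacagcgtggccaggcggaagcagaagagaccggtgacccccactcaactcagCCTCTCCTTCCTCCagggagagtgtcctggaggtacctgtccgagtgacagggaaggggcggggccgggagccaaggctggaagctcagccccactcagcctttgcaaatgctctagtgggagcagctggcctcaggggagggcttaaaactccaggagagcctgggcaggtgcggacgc
TEDC1: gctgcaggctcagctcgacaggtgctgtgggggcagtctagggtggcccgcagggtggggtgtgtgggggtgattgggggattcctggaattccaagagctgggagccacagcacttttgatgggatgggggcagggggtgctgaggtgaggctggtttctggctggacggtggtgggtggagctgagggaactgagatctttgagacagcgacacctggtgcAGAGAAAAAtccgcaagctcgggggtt
SHANK3: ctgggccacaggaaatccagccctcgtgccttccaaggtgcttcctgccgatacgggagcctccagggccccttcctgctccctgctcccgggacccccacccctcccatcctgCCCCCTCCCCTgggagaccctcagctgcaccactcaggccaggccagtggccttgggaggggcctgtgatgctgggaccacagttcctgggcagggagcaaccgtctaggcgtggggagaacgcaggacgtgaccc

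The longest run was of purines in GAL3ST2 (10 bases), STPG3 (14 bases) and TEDC1 (9 bases), and of pyrimidines in PABPN1L (14 bases) and SHANK3 (11 bases). GC content was 67.2% in GAL3ST2, 67.6% in STPG3, 64.4% in PABPN1L, 61.6% in TEDC1 and 68.4% in SHANK3. The region over the GAL3ST2 stretch stood 3.29-fold above the no-oligo control with MEG3 TFR1 and 2.64-fold with the GATA6-AS oligo. The same values were 2.36-fold and 2.52-fold at STPG3, and 1.86-fold and 2.08-fold at PABPN1L. With the GATA6-AS oligo the TEDC1 region stood at 6.07-fold and the SHANK3 region at 4.83-fold. TEDC1 and SHANK3 were chosen for their ratios, so run length and ratio are not compared over these 5.

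Each oligo has a captured list and a control list, the latter of regions with more signal without the oligo, and every region carries 1 value, the authors' log2 ratio of oligo over no oligo. Neither single libraries nor read totals are represented in the lists. Depth, library spread within a group and the error of a ratio are therefore unknown, and no test between conditions could be made. Shares are given with 95% Wilson intervals, which cover counting error only, and treat neighbouring regions as independent. The no-oligo libraries are common to the 3 comparisons, so a likeness between oligos is not read as a result, and values are set side by side. The 3 regions nearest to the 2 Mb threshold on the inside lay on chromosomes 11, 12 and 4, at 2.31-fold with MEG3 TFR1 and at 4.54-fold and 1.90-fold with the GATA6-AS oligo. The nearest 3 outside, all of the GATA6-AS oligo, lay on chromosomes 14, 11 and 5 at 3.20-fold, 2.49-fold and 2.15-fold.

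The first comparison asks whether chromosome ends held more captured DNA than the rest of the autosomes. They did for all 3 oligos in regions per Mb, and by the widest margin for the GATA6-AS oligo. With the GATA6-AS oligo, 10464 of 104716 captured autosomal regions lay at the ends, a share of 9.99% (95% interval 9.81% to 10.2%), although the ends make up 2.78% of the called span. With MEG3 TFR1 the count was 4734 of 89682, or 5.28% (5.13% to 5.43%), and with MEG3 TFR2 it was 3596 of 73515, or 4.89% (4.74% to 5.05%). In density, the GATA6-AS oligo had 134 captured regions per Mb at the ends against 34.6 elsewhere, a ratio of 3.88. MEG3 TFR1 had 60.7 against 31.2 per Mb, a ratio of 1.95. MEG3 TFR2 had 46.1 against 25.7 per Mb, a ratio of 1.80. The ends therefore exceeded the remaining 2724 Mb with each oligo, and the excess of the GATA6-AS oligo stood apart from those of the MEG3 oligos. Captured regions covered 7.20% of the bases of the ends with the GATA6-AS oligo against 1.61% elsewhere. With MEG3 TFR1 they covered 2.60% against 1.32%, and with MEG3 TFR2 1.72% against 0.932%.

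Control regions were also denser at the ends, but less so. Their density ratio was 1.40 for MEG3 TFR1 (486 regions), 1.37 for MEG3 TFR2 (412 regions) and 1.26 for the GATA6-AS oligo (1263 regions). With a floor of 1.5 on the size of the log2 ratio, it was lower, at 1.17, 1.18 and 1.06 in the same order. Of the 5220 listed regions at the ends with MEG3 TFR1, 90.7% were captured (89.9% to 91.4%), where the background over the whole list was 87.6%. For MEG3 TFR2 it was 89.7% of 4008 (88.7% to 90.6%), against a background of 87.0%. For the GATA6-AS oligo it was 89.2% of 11727 (88.7% to 89.8%), against a background of 74.2%. Put as captured regions per control region, the ends had 8.29 with the GATA6-AS oligo against 2.69 elsewhere, 9.74 against 6.98 with MEG3 TFR1, and 8.73 against 6.64 with MEG3 TFR2. The GATA6-AS oligo, whose captured list was poorest relative to its control list over the rest of the autosomes, was near the MEG3 oligos at the ends in these counts. In covered base pairs it stood above them, at 13.9 captured per control, where MEG3 TFR1 had 12.1 and MEG3 TFR2 9.96.

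The regions at the ends were more numerous, but their ratios were close to those elsewhere. The median log2 ratio of captured regions at the ends was 1.41 with MEG3 TFR1 (quartiles 1.15 and 1.75), and 1.41 elsewhere. It was 1.43 with MEG3 TFR2 (1.18 and 1.74) against 1.44, and 1.35 with the GATA6-AS oligo (1.10 and 1.68) against 1.33. Most members thus stood between 2-fold and 4-fold, and a log2 ratio of at least 2 was reached by 15.3% of them with MEG3 TFR1, 13.1% with MEG3 TFR2 and 11.4% with the GATA6-AS oligo. The same shares elsewhere were 14.3%, 14.1% and 10.1%. Control regions at the ends had medians of -1.43, -1.38 and -1.46 for MEG3 TFR1, MEG3 TFR2 and the GATA6-AS oligo, each nearer to 0 than the -1.53, -1.46 and -1.57 elsewhere. Captured members were 350 bp wide at the median with either MEG3 oligo, as elsewhere, and 450 bp with the GATA6-AS oligo against 400 bp.

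Within the ends, the outermost DNA was not the richest in captured regions. The GATA6-AS oligo had 74.9 captured regions per Mb in the first 0.1 Mb from the limit, 94.9 from 0.1 to 0.25 Mb and 99.4 from 0.25 to 0.5 Mb. Its density was 150 per Mb from 0.5 to 1 Mb, 155 from 1 to 1.5 Mb and 139 from 1.5 to 2 Mb. Beyond the threshold it was 103 per Mb from 2 to 3 Mb, 90.5 from 3 to 4 Mb, 73.5 from 4 to 5 Mb and 56.6 from 5 to 10 Mb. The profile was thus highest 0.5 to 2 Mb inside the limit, and lower in each bin beyond. The MEG3 oligos had flatter profiles. MEG3 TFR1 had 52.1 captured regions per Mb in the first 0.1 Mb, 65.6 from 1.5 to 2 Mb and 47.1 from 5 to 10 Mb. MEG3 TFR2 had 38.7, 49.7 and 35.2 in the same bins. Control regions ran the other way. Their density was highest in the first 0.1 Mb, at 10.5 per Mb with MEG3 TFR1, 9.23 with MEG3 TFR2 and 23.3 with the GATA6-AS oligo, and in the bin from 1.5 to 2 Mb it was 5.79, 4.62 and 13.9. Captured regions per control region were accordingly lowest in the first 0.1 Mb, at 4.95 with MEG3 TFR1, 4.19 with MEG3 TFR2 and 3.21 with the GATA6-AS oligo. The outermost 0.1 Mb rests on 203, 151 and 292 captured and 41, 36 and 91 control regions over the 39 ends.

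**Figure D1:**
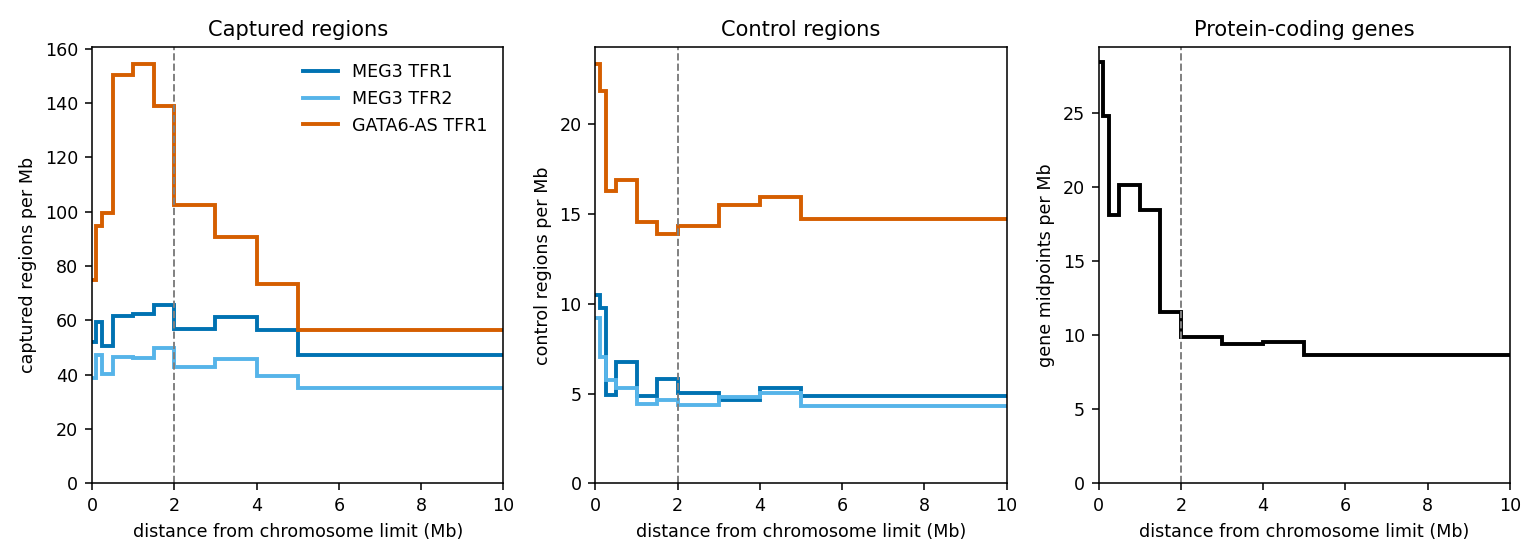
Captured regions per Mb, control regions per Mb and midpoints of protein-coding genes per Mb against the distance from the chromosome limit in Mb, summed over the 39 ends in 10 bins, with the 2 Mb threshold dashed. Captured density with the GATA6-AS oligo reached 155 per Mb from 1 to 1.5 Mb and was 56.6 from 5 to 10 Mb, and control density was highest in the first 0.1 Mb for each oligo; genes lying beyond a limit are counted in the first bin.

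The next question is how evenly the ends shared these regions. An excess over the rest of the same chromosome was common but not general: captured density exceeded that of the rest of the chromosome at 33 of 39 ends with MEG3 TFR1, 32 with MEG3 TFR2 and 33 with the GATA6-AS oligo. It was at least 2-fold at 15, 14 and 24 ends. The number of captured regions at an end ran from 6 to 225 with MEG3 TFR1 (median 119), from 8 to 175 with MEG3 TFR2 (median 95) and from 4 to 674 with the GATA6-AS oligo (median 228). The GATA6-AS oligo was the most uneven, with 51.2% of its members at its 10 richest ends, where the MEG3 TFR1 share was 39.7% and the MEG3 TFR2 share 41.0%. In the text the end at small coordinates is called p and that at large coordinates q. Gene numbers given for the ends include genes lying beyond a limit, where no region could be listed.

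The ends with the most captured regions, summed over the oligos, were 19p, 20q, 11p and 8q. The end of 19p, which holds 115 protein-coding genes, had 220 captured regions with MEG3 TFR1, 153 with MEG3 TFR2 and 674 with the GATA6-AS oligo. The end of 20q (56 genes) had 225, 167 and 637, that of 11p (78 genes) 173, 166 and 567, and that of 8q (77 genes) 198, 175 and 532. Set against the rest of their own chromosomes, however, 19p stood at 1.20-fold, 1.17-fold and 2.43-fold in density, chromosome 19 having 91.6, 65.3 and 139 captured regions per Mb outside its ends, whereas 8q stood at 4.17-fold, 4.30-fold and 11.8-fold. The highest such value was 12.0-fold, on 4p with the GATA6-AS oligo (384 captured regions). The ends with the fewest were 3p, 4q, 18p and 9p. The end of 3p (4 genes) had 6 captured regions with MEG3 TFR1, 8 with MEG3 TFR2 and 4 with the GATA6-AS oligo, 0.119, 0.169 and 0.0764 times the density of the rest of chromosome 3. The end of 4q (3 genes) had 26, 19 and 21, that of 18p (12 genes) 35, 29 and 29, and that of 9p (14 genes) 33, 32 and 31. The opposite ends of chromosome 9 thus differed widely: 9q, with 73 genes, had 178, 141 and 567.

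**Figure D2:**
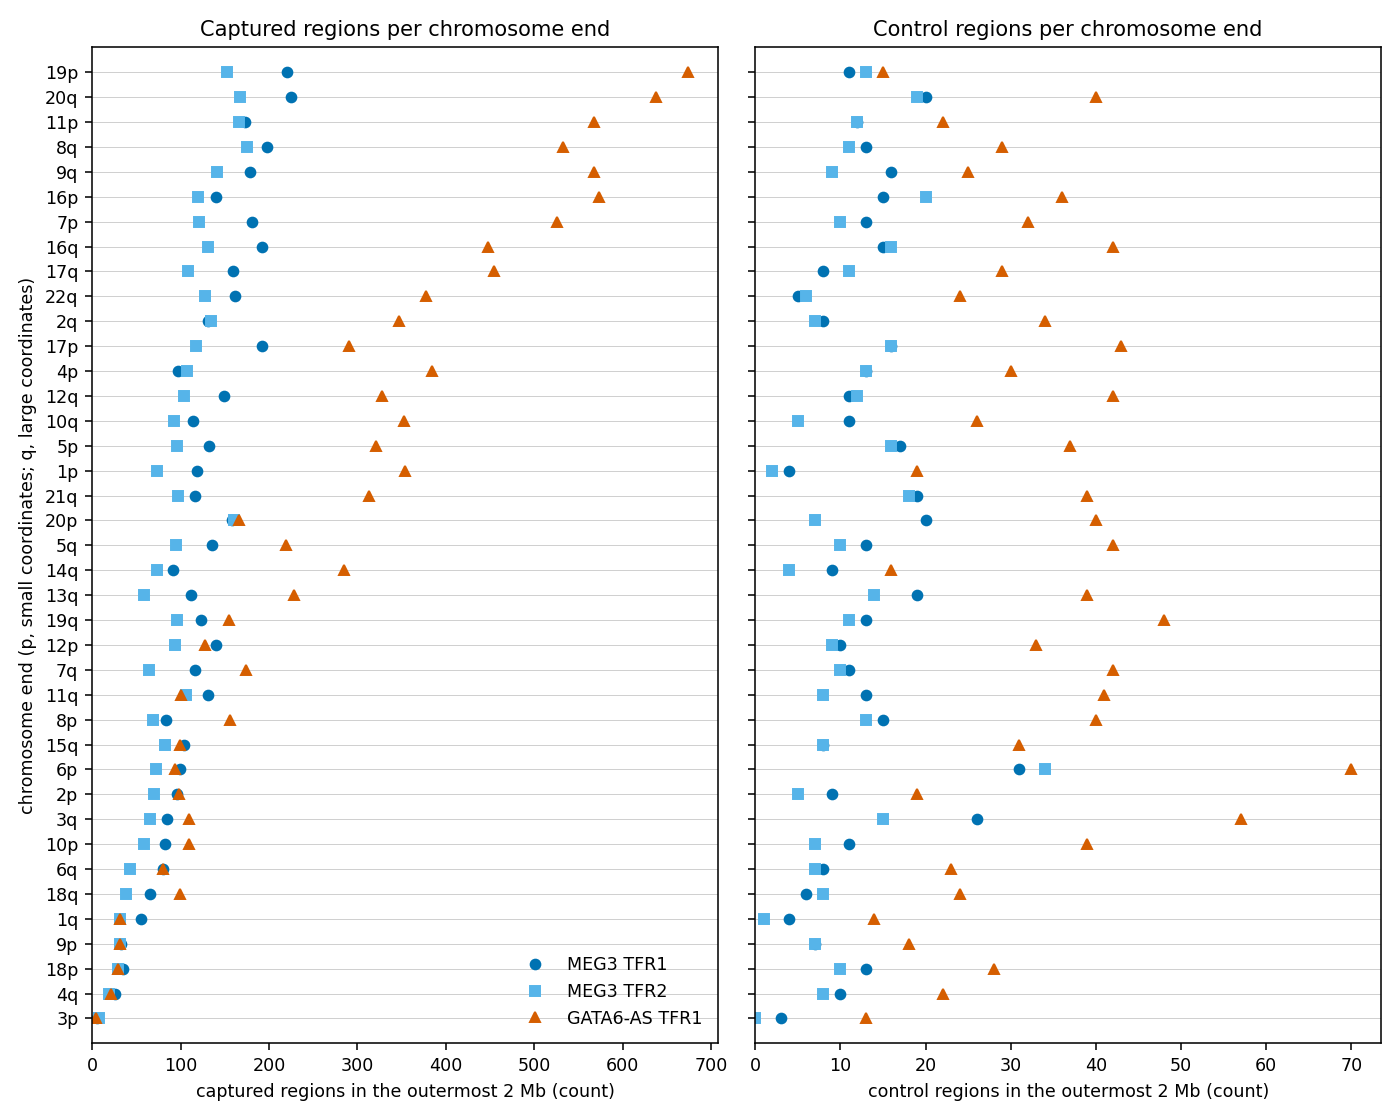
Number of captured regions (left) and of control regions (right) in the outermost 2 Mb of each of the 39 chromosome ends, ordered by captured regions summed over the 3 oligos, with 1 point per oligo. Captured counts ran from 4 to 674 with the GATA6-AS oligo, and 6p had the most control regions with each oligo (31, 34 and 70).

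Across the 39 ends, captured counts followed the number of protein-coding genes, and Spearman's rho was 0.79 with the GATA6-AS oligo, 0.72 with MEG3 TFR2 and 0.69 with MEG3 TFR1. For control regions rho was -0.01, 0.32 and 0.19 in the same order. These are descriptions over 39 ends whose counts come from the same libraries; base composition of the ends was not measured here. Captured counts did not follow gene number at every end. The end of 1q has 56 protein-coding genes, 43 of them olfactory receptor genes, and had 55, 32 and 32 captured regions with MEG3 TFR1, MEG3 TFR2 and the GATA6-AS oligo. The end of 19q has 71 genes, 45 of them ZNF genes of the zinc finger class, and had 123, 96 and 155, above the median end with both MEG3 oligos and below it with the GATA6-AS oligo.

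The ends have 18.1 protein-coding genes per Mb, genes beyond a limit included, and the rest of the autosomes 6.50. The ends were therefore also set beside interior stretches of 2 Mb with a like number of genes, a comparison chosen after seeing the data. With the GATA6-AS oligo the ends had more captured regions in each class of gene number. The medians were 59.5 for the 4 ends and 19 for the 692 interior stretches with up to 9 genes, 99.0 for 11 ends and 52.0 for 384 interior stretches with 10 to 19 genes, 321 for 11 ends and 158 for 182 stretches with 20 to 39 genes, and 454 for 13 ends and 270 for 79 stretches with 40 or more. With MEG3 TFR1 the ends were higher at up to 9 genes (61.0 against 22) and at 10 to 19 (83.0 against 55.5), close at 20 to 39 (132 against 122) and lower at 40 or more (173 against 189). MEG3 TFR2 gave 41.5 against 23, 69.0 against 49.0, 97.0 against 97.5, and 120 against 145. The ends had somewhat more genes within each class, with median gene numbers of 5.5 against 4, 14 against 13, 30 against 25 and 68 against 54. The ranges of captured counts overlapped in all these classes. At 40 or more genes the ends ran from 32 to 674 and the interior stretches from 17 to 569 with the GATA6-AS oligo. Counted per protein-coding gene, the direction turned for the MEG3 oligos: MEG3 TFR1 had 0.699 and MEG3 TFR2 0.645 times as many captured regions per gene at the ends as elsewhere, and the GATA6-AS oligo 1.39 times. Control regions per gene stood at 0.501, 0.491 and 0.452 times the value elsewhere.

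**Figure D3:**
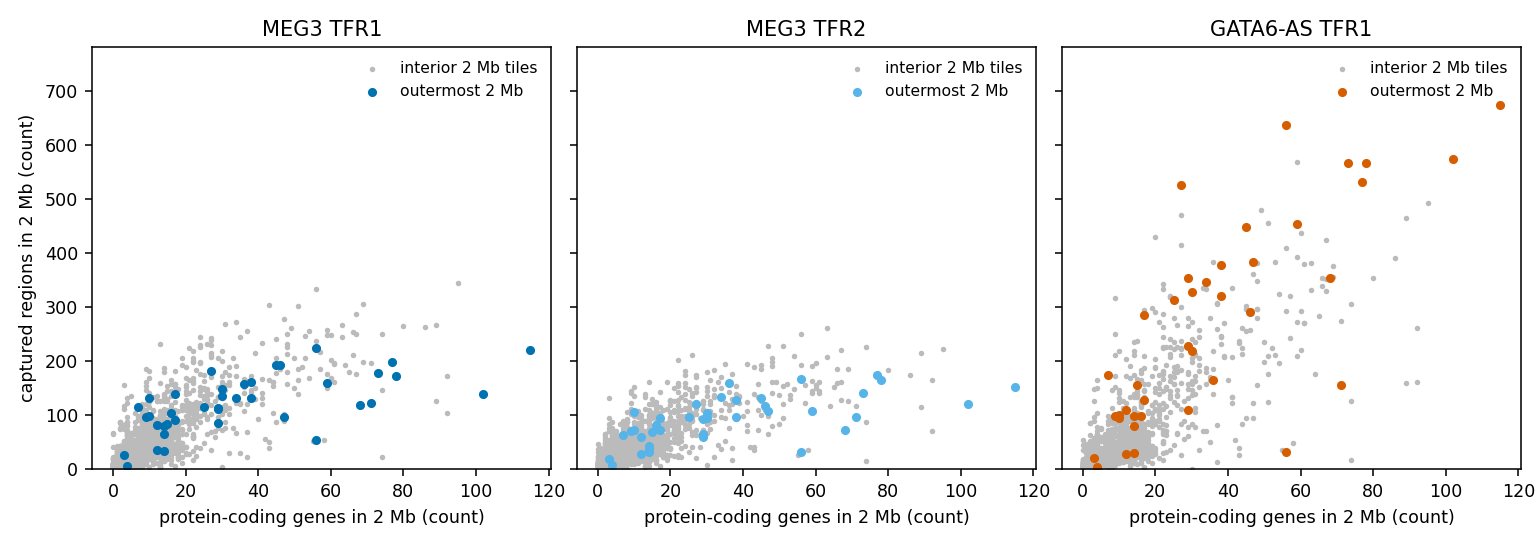
Captured regions in 2 Mb of DNA against the number of protein-coding genes there, for the 39 chromosome ends (coloured points) and interior 2 Mb stretches (grey points), with 1 panel per oligo. With the GATA6-AS oligo the median end with 40 or more genes had 454 captured regions and the median interior stretch 270, while with the MEG3 oligos the median was lower at such ends than inside.

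Relative to genes, the members lay inside genes for the most part. The midpoints of 57.3% of the captured members of the GATA6-AS oligo lay inside a protein-coding gene away from its edges (56.3% to 58.2%), against 52.1% elsewhere. For MEG3 TFR1 it was 53.4% (52.0% to 54.8%) against 50.0%, and for MEG3 TFR2 54.2% (52.6% to 55.8%) against 50.8%. Edges, meaning DNA at most 1 kb from an end of a protein-coding gene on either side, held 11.7%, 7.20% and 7.98% of captured midpoints at the ends and 10.8%, 5.93% and 5.42% elsewhere, for the GATA6-AS oligo, MEG3 TFR1 and MEG3 TFR2. Between genes lay 22.7%, 27.9% and 26.8%, against 27.6%, 32.7% and 32.3% elsewhere. Of the control members, 58.7%, 55.1% and 56.8% lay inside protein-coding genes in the same order, against 48.7%, 46.9% and 47.3% elsewhere. At gene edges lay 4.43%, 8.23% and 6.07% of them, against 2.60%, 2.70% and 3.16% elsewhere, a larger relative difference than that of the captured regions. More DNA at the ends is gene edge, with 18.1 protein-coding genes per Mb against 6.50 elsewhere. The shares of DNA at edges, inside genes and between genes were not computed. None of these shares of regions therefore shows a preference for edges or for the inside of genes.

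Of the 1412 protein-coding genes whose midpoint lay at the ends or beyond a limit (7.38% of 19122), 913 had a captured region of the GATA6-AS oligo at an edge, or 64.7% (62.1% to 67.1%). The background over all autosomal protein-coding genes was 48.8%, and 47.6% of the 17710 genes elsewhere had one. MEG3 TFR1 had one at 390 genes, or 27.6% (25.4% to 30.0%), against a background of 29.4%, and MEG3 TFR2 at 314, or 22.2% (20.1% to 24.5%), against 23.2%. The genes of the ends were thus ahead of the background with the GATA6-AS oligo and slightly under it with the MEG3 oligos, and for the latter the direction turned with edges of 5 kb, at 66.2% against 59.2% elsewhere for MEG3 TFR1 and 60.8% against 53.4% for MEG3 TFR2. Control regions lay at the edges of 43, 31 and 66 genes of the ends for MEG3 TFR1, MEG3 TFR2 and the GATA6-AS oligo, or 3.05%, 2.20% and 4.67%, beside backgrounds of 2.44%, 2.32% and 6.18%.

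The share of genes with a captured edge region differed between gene families. Olfactory receptor genes, which encode odorant receptors and stand in clusters, had a captured edge region at 5 of 57 at the ends with MEG3 TFR1, 2 with MEG3 TFR2 and 1 with the GATA6-AS oligo. These shares were 8.77%, 3.51% and 1.75%, against 7.49%, 5.69% and 4.19% of the 334 olfactory receptor genes elsewhere. Low shares of this family were thus not particular to the ends. ZNF genes had one at 21, 16 and 32 of 82 (25.61%, 19.51% and 39.02%), close to the 26.71%, 17.49% and 38.77% elsewhere. Of the 164 gene models without a standard name (LOC), 24, 17 and 65 had one (14.63%, 10.37% and 39.63%). Elsewhere it was 19.53%, 16.52% and 30.90% of 466, higher with the MEG3 oligos and lower with the GATA6-AS oligo. All 1109 other genes of the ends stood at 30.7%, 25.2% and 73.5%, against 30.4%, 24.0% and 49.2% of the 16487 such genes elsewhere, a split chosen after seeing the data. At the end of 8q, 72 of 77 genes had a captured edge region of the GATA6-AS oligo, at 20q 49 of 56 and at 9q 63 of 73, whereas 2 of 56 had one at 1q and none of the 4 at 3p.

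**Figure D4:**
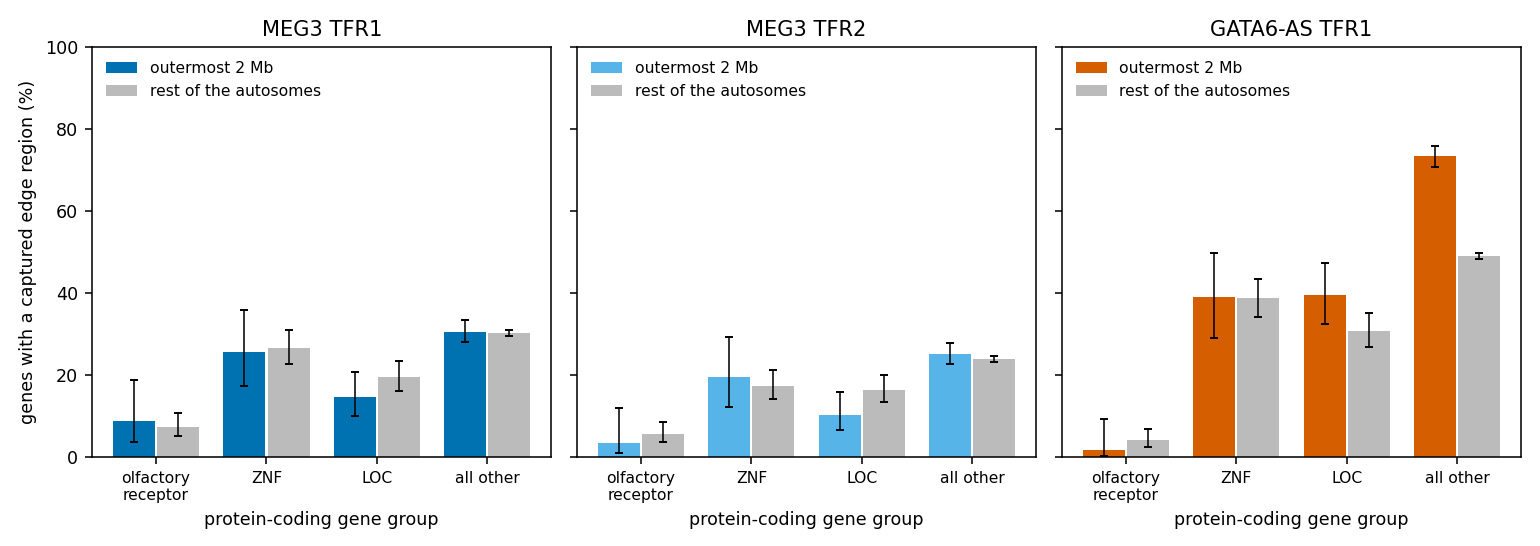
Percent of protein-coding genes with a captured region within 1 kb of either end, by gene group, at the outermost 2 Mb (coloured bars) and on the rest of the autosomes (grey bars), with 1 panel per oligo and 95% Wilson intervals as error bars. With the GATA6-AS oligo all other genes stood at 73.5% at the ends and 49.2% elsewhere, and olfactory receptor genes stood below 10% in all 3 panels.

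The gene lists were read against the shares of all genes at the ends, 64.7% with the GATA6-AS oligo, 27.6% with MEG3 TFR1 and 22.2% with MEG3 TFR2. The alpha-globin cluster of 16p, whose genes encode embryonic and adult alpha-like chains of haemoglobin, was taken with the neighbouring gene NPRL3, and all 6 genes had a captured edge region of the GATA6-AS oligo. The ratios ran from 1.78-fold at HBA1 to 3.00-fold at HBQ1, with NPRL3, which carries the cluster's enhancers and encodes no globin, at 2.67-fold. MEG3 TFR1 had a region at 2 of them, HBZ (2.45-fold) and HBA2 (2.74-fold), and MEG3 TFR2 at none. Over the whole end of 16p, 85 of 102 genes (83.3%) had a captured edge region of the GATA6-AS oligo, a share above that of all the ends together. HBA1 and HBA2 are near-identical copies, so their values are uncertain.

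Of 4 genes around the telomere maintenance genes of chromosome ends, all had a captured edge region of the GATA6-AS oligo and 1 had one with either MEG3 oligo. That gene was TERT, the catalytic subunit of telomerase, for which MEG3 TFR1 gave 4.88-fold, MEG3 TFR2 2.44-fold and the GATA6-AS oligo 3.80-fold. RTEL1, a helicase that unwinds telomeric DNA, stood at 2.73-fold with the GATA6-AS oligo, and its neighbours TNFRSF6B, a decoy receptor gene, and STMN3, a microtubule regulator gene, at 2.93-fold and 2.89-fold. RTEL1, TNFRSF6B and STMN3 lie at the end of 20q, where 49 of 56 genes (87.5%) had a captured edge region of that oligo. Around TERT on 5p, 3 of 8 genes had a captured edge region with MEG3 TFR1, 2 with MEG3 TFR2 and 5 with the GATA6-AS oligo. SLC6A19, a neutral amino acid transporter gene, had 3.02-fold with the GATA6-AS oligo and 3.35-fold with MEG3 TFR1, and NKD2, the gene of a Wnt pathway inhibitor, had 2.01-fold, 2.80-fold and 2.40-fold with MEG3 TFR1, MEG3 TFR2 and the GATA6-AS oligo. CLPTM1L, AHRR and SLC6A18 had none at an edge.

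Of 20 developmental transcription factor genes at the ends, 3 had a captured edge region with MEG3 TFR1, 3 with MEG3 TFR2 and 12 with the GATA6-AS oligo, which is near the shares of all genes at this list size. SOX8 of 16p, counted among the 12 at 2.37-fold, also had a control edge region of the GATA6-AS oligo, at 3.18-fold. The homeobox gene NKX1-1 of 4p had 5.74-fold with the GATA6-AS oligo and 5.73-fold with MEG3 TFR1. GATA5, a heart and endoderm factor gene of 20q, stood at 3.74-fold with MEG3 TFR2 and 3.18-fold with the GATA6-AS oligo. UTF1 and VENTX of 10q, the first a gene of undifferentiated embryonic stem cells, stood at 3.13-fold and 3.88-fold with the GATA6-AS oligo. Neither DMRT1 nor DMRT3, genes of the sexual development family on 9p, had a captured region at an edge, and their neighbour DMRT2 stood at 3.16-fold with the GATA6-AS oligo. Of 7 genes around the FOX genes and IRF4 on 6p, which include DUSP22, EXOC2 and GMDS, 2 had a captured edge region with MEG3 TFR1, 2 with MEG3 TFR2 and 4 with the GATA6-AS oligo, DUSP22 being counted each time and EXOC2 among the 4. The others included FOXF2 with 2.68-fold for the GATA6-AS oligo and 3.09-fold for MEG3 TFR1. FOXC1 had none.

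Of 18 neuronal receptor, channel and synapse genes, 8 had a captured edge region with MEG3 TFR1, 7 with MEG3 TFR2 and 12 with the GATA6-AS oligo. SHANK3, whose upstream stretch is printed above, stood at 4.95-fold, 3.64-fold and 4.83-fold, and its gene body held 9, 7 and 20 captured regions. GRIN1, the obligatory subunit of NMDA receptors, stood at 2.24-fold, 2.81-fold and 5.83-fold. The cell adhesion genes CHL1 and CNTN6 of 3p had none at an edge, and their bodies of 213 kb and 311 kb held 0 and 1 captured region with each oligo. Longer genes at other ends held more in number. PTPRN2 (1049 kb, 7q) had 59 captured regions with MEG3 TFR1, 31 with MEG3 TFR2 and 98 with the GATA6-AS oligo. DLGAP2 (971 kb, 8p) had 36, 32 and 75. The ends as a whole had 60.7, 46.1 and 134 captured regions per Mb, so for their length both genes were below that average.

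Of 13 genes of terminal deletion syndromes, 4, 4 and 7 had a captured edge region with MEG3 TFR1, MEG3 TFR2 and the GATA6-AS oligo. GABRD, a GABA receptor subunit gene of 1p, had 7.36-fold with the GATA6-AS oligo and 5.07-fold with MEG3 TFR1. GNB1, a G protein subunit gene of 1p, stood at 2.89-fold, 3.37-fold and 3.34-fold, and EHMT1, a histone methyltransferase gene of 9q, at 4.12-fold with the GATA6-AS oligo. CTBP1, DOCK8, ZMYND11 and CTDP1 had none at an edge, although the body of DOCK8 held 5, 2 and 3 captured regions in the same order of oligos.

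Gene families present in many near-identical copies at chromosome ends were counted over the gene body, for which no share over all genes was computed. Of 67 gene copies of the families DDX11L, WASH, FAM138, OR4F, DUX4, TUBB8 and FRG2, pseudogenes included, 3 held a captured region with MEG3 TFR1, 2 with MEG3 TFR2 and 6 with the GATA6-AS oligo, and 2, 3 and 5 held a control region. None of the 17 OR4F copies and none of the 5 FAM138 copies held a captured region of any oligo. Copies lying beyond a limit are included, among them OR4F5 of 1p and OR4F3 of 5q. No region could be listed there, so part of these zeros was fixed in advance. How reads that match several copies were placed is not given in the sources used here, so these counts are uncertain.

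The highest ratios at gene edges of the chromosome ends belonged to different genes for the 3 oligos. MEG3 TFR1 had them at F10-AS2 on 13q (chr13:113152401-113153050, inside the gene, 9.87-fold), ZNF71 on 19q (9.78-fold), THBS2 on 6q (chr6:169215101-169215450, beside the gene, 8.76-fold), which encodes a matrix glycoprotein, FNDC10 on 1p (8.52-fold) and FAM53A on 4p (8.35-fold). MEG3 TFR2 had them at TPSAB1 on 16p (chr16:1239801-1240000, beside the gene, 12.6-fold), a mast cell tryptase gene, NRSN2 on 20p (8.0-fold), CRIP1 and TEDC1 on 14q, which share a region at 7.50-fold, and C1QTNF8 on 16p (6.50-fold). TPSAB1 has close copies beside it, so its value is uncertain. The GATA6-AS oligo had them at ADNP2 on 18q (chr18:80108301-80108500, beside the gene, 30.3-fold), a homeobox zinc finger gene, MUC6 on 11p (17.2-fold), a gastric mucin gene, C2CD4C and LOC124904607 on 19p, which share a region at 17.1-fold, and MCRIP2 on 16p (16-fold). ADNP2 and MUC6 had no edge region of either MEG3 oligo.

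Of genes with edge regions of all 3 oligos, the smallest of the 3 ratios was highest at ZNF71 (MEG3 TFR1 9.78-fold, MEG3 TFR2 4.69-fold, the GATA6-AS oligo 7.56-fold). POLR2E, the gene of a subunit shared by the nuclear RNA polymerases, and its neighbour ARHGAP45, a GTPase-activating protein gene, both on 19p, had the same ratios with the MEG3 oligos, 6.01-fold for TFR1 and 4.86-fold for TFR2. With the GATA6-AS oligo, POLR2E stood at 4.43-fold and ARHGAP45 at 4.24-fold. ZDHHC11 on 5p, a palmitoyltransferase gene with a near copy beside it, stood at 3.87-fold, 5.69-fold and 9.0-fold, and NLRP6 on 11p, an inflammasome sensor gene, at 4.24-fold, 3.78-fold and 8.0-fold.

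Anywhere at the ends, the highest captured ratios were 56-fold with MEG3 TFR1 in the immunoglobulin heavy chain locus of 14q, 29.7-fold with MEG3 TFR2 between genes of 22q (chr22:48857401-48857850), and 38.2-fold with the GATA6-AS oligo inside SLC17A9 on 20q (chr20:62966301-62966650), a vesicular nucleotide transporter gene. The next with MEG3 TFR1 lay inside IGSF9B on 11q (29.6-fold) and inside CACNA1B on 9q (22.7-fold), a neuronal calcium channel gene. Those of MEG3 TFR2 lay in LETM1 on 4p (28.8-fold), a mitochondrial membrane protein gene, and in OR2V1 on 5q (25.7-fold). Those of the GATA6-AS oligo lay on 8q, 20.1 kb from MAFA (35.5-fold), and in ABCA2 on 9q (35.0-fold). All 9 were 450 bp wide or less. With no value per library the error of such high ratios is unknown.

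With MEG3 TFR2 and the GATA6-AS oligo, captured regions were packed most closely on 11p. Of the 780 stretches of 100 kb that make up the ends, the median held 6 captured regions with MEG3 TFR1, 4 with MEG3 TFR2 and 9 with the GATA6-AS oligo. The stretch chr11:791701-891700, with 10 protein-coding genes among them CD151, PNPLA2 and POLR2L, held 12, 23 and 57, and regions of the GATA6-AS oligo covered 48.3% of it. The stretch with IGF2, INS and TH, the genes of an imprinted growth factor, insulin and tyrosine hydroxylase, held 12, 12 and 53, and that of 16p with SSTR5, a somatostatin receptor gene, and C1QTNF8 held 4, 7 and 53. The MEG3 TFR1 count was highest on 12p around IQSEC3, the gene of a synaptic exchange factor, and SLC6A12, with 29 regions beside 13 with MEG3 TFR2 and 23 with the GATA6-AS oligo. There were 56, 74 and 76 stretches with no captured region of MEG3 TFR1, MEG3 TFR2 and the GATA6-AS oligo. Single regions were also long on 11p: the longest captured member of the GATA6-AS oligo spanned 3700 bp of MUC6 at 2.62-fold.

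Control regions were packed at another place, the gene DUSP22 of 6p, which encodes a dual-specificity phosphatase. The 100 kb with DUSP22 held 25 control regions with MEG3 TFR1, 21 with MEG3 TFR2 and 42 with the GATA6-AS oligo, where the median stretch held 0, 0 and 1. The gene body held 17, 14 and 29 control regions and also 13, 10 and 10 captured ones. Because the no-oligo libraries are common to the 3 comparisons, this likeness is not read as a result. The longest control member lay on 4q, 64.0 kb from DUX4, a copy of the double homeobox gene repeated there, and spanned 6700 bp with the GATA6-AS oligo (1.90-fold higher without the oligo). The largest control ratios, no oligo over oligo, were 8.44-fold inside DLGAP2 on 8p with MEG3 TFR1, 13.4-fold beside NME4 on 16p with MEG3 TFR2, and 14-fold inside DYNC2I1 on 7q with the GATA6-AS oligo.

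The base composition of promoters was described from the RefSeq table, in which a promoter runs from 250 bases before to 50 bases after a start. Of the 1412 genes of the ends, 985 had a listed start, 69.8%, so this description is void as a check over all genes of the ends and covers only the 1314 listed promoters. Of those, 10 lay wholly inside captured regions of MEG3 TFR1, 1 of MEG3 TFR2 and 63 of the GATA6-AS oligo, or 0.761%, 0.0761% and 4.79%, beside 1.45%, 0.431% and 4.53% of the 19726 promoters elsewhere. The median GC content was 69.0% over all promoters of the ends, 65.0% over the 63 and 62.0% elsewhere. The 63 had a median of 10 CpG sites, against 30 over all promoters of the ends. Promoters at the ends that lay wholly in regions of the GATA6-AS oligo thus had fewer CpG sites than the average promoter there. The same held elsewhere, where 894 promoters lay wholly in regions of the GATA6-AS oligo. Their median was 15 CpG sites, against 21 over all promoters elsewhere.

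Among the 63, a run of at least 15 purines or pyrimidines was present in 22.2%. It was present in 13.3% of all promoters of the ends and in 20.4% of all 21040 listed promoters of autosomal protein-coding genes. Among the 894 covered promoters elsewhere it was present in 33.8%, against 20.9% of all promoters elsewhere. The letters searched, on both strands, were TTAGGG (the telomere repeat unit), the purine motif GAGAGA, the purine motif GGAGGA, the purine motif AGAAGA and the guanine run GGGGGG, and matches to different letters may overlap. GGGGGG was present in 44.4% of the 63, in 26.3% of all promoters of the ends and in 21.7% of the 21040. GGAGGA was present in 50.8%, 35.9% and 39.7%, and GAGAGA in 11.1%, 13.5% and 21.4%. AGAAGA was present in 4.76%, 10.4% and 17.2%, and TTAGGG in 6.35%, 6.32% and 8.91%. In the 894 covered promoters elsewhere, the shares were 38.9% for GGGGGG, 51.6% for GGAGGA and 26.2% for GAGAGA, against 21.4%, 39.9% and 21.9% of all promoters elsewhere. The shares of the 894 were 16.2% for AGAAGA and 10.5% for TTAGGG, against 17.6% and 9.08%. Frequent GGGGGG and GGAGGA were thus not particular to covered promoters of the ends. The 10 promoters within MEG3 TFR1 regions had a median GC content of 61.0%, and 40.0% of them held GAGAGA. Elsewhere 287 promoters lay wholly within MEG3 TFR1 regions, with a median GC content of 59.3%, and 47.4% held GAGAGA. In the printed 250-base stretches, GAL3ST2 held GGAGGA and GGGGGG, PABPN1L held GGAGGA and AGAAGA, and the other stretches held none of the 5.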

How the data were processed

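Sequencing libraries of DNA recovered with 3 RNA oligos or none were analysed from 6 deposited lists. The authors used BWA 0.7.15-r1140, FastQC and build hg38, per the submitters' processing notes. What called the regions, with which settings and scaling, is not given in the sources used here. Deposited log2 ratios, 1 per region, are signed, and their log base was read from the values, since 2 to the power of a value is a ratio of whole numbers. Fold values are that power, turned to exceed 1 in control lists. Regions were at least 150 bp wide. The input named in the design was not analysed here.

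Coordinates count from 1. Autosomal protein-coding genes, promoters and sequences came from RefSeq tables of GRCh38.p14. A gene edge is 1 kb to either side of either gene end, and rates leave out X, with 162 regions. Nothing was tested, as the lists hold no value per library. The overlap between oligos, planned as a result, was left out because the comparisons share the no-oligo libraries. Members and gene lists were chosen with earlier results of these data known. Genes named were, for each oligo, the 5 with the highest captured edge ratio, the 5 with the highest smallest ratio over the 3 oligos, the 3 largest captured and control ratios, and members of the lists; DUSP22, PTPRN2, the densest 100 kb stretches and the longest regions were chosen after their values were seen. Promoter stretches were up to 8 wholly covered promoters, none on chromosome 8, with the most oligos and then the highest mean ratio, of which 5 are printed. Counting was tested on simulated lists. Python 3.11.15, numpy 2.4.6, pandas 2.3.3, scipy 1.17.1 and matplotlib 3.10.9 were used. Alternatives were other windows, a floor of 1.5 on the size of the log2 ratio, joined regions, base pairs, omission of chromosome 1 and wider gene edges, and, added later, omission of the outermost 100 kb and rates per gene.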

Additional observations from a re-analysis of the deposited data

How the results depend on the processing

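No paired analysis was possible because the lists hold no value per library, and for the same reason no library could be left out. What the ratios' depth allows is unknown. Overlap between oligos, planned with 2 definitions, was not run, since the no-oligo libraries are common to the comparisons. The ends exceeded the rest in captured regions per Mb under all alternatives run on that measure, and the cause of each shift below was not tested. Windows of 1 Mb gave captured density ratios of 1.82, 1.70 and 3.36 and captured per control counts of 8.06, 7.31 and 6.70 for MEG3 TFR1, MEG3 TFR2 and the GATA6-AS oligo. Windows of 4 Mb gave captured per control counts of 10.8 (MEG3 TFR1) and 7.42 (the GATA6-AS oligo), and for the latter a density ratio of 3.52. A floor of 1.5 on the size of the log2 ratio gave density ratios of 1.72 for MEG3 TFR2 and 4.12 for the GATA6-AS oligo, with 6.57 captured per control region for the latter. Joining regions within 200 bp gave a captured density ratio of 3.70 and 7.58 captured per control region for the GATA6-AS oligo. Base pairs in place of counts gave captured per control values of 12.1, 9.96 and 13.9 and a density ratio of 4.48 for the GATA6-AS oligo. Without chromosome 1 the density ratio was 2.04 for MEG3 TFR1 and 3.99 for the GATA6-AS oligo. The last alternatives were chosen after seeing the data. Without the outermost 100 kb the GATA6-AS oligo density ratio was 3.97. Counted per protein-coding gene in place of per Mb, the ratio turned below 1 for captured regions of MEG3 TFR1 (0.699) and MEG3 TFR2 (0.645) and for control regions (0.501, 0.491 and 0.452), and was 1.39 for captured regions of the GATA6-AS oligo. Gene edges of 5 kb in place of 1 kb raised the genes of the ends with a captured edge region from 390 to 935, from 314 to 858 and from 913 to 1173 (66.2%, 60.8% and 83.1%), against 59.2%, 53.4% and 67.8% elsewhere, so that with the wider edge the ends led with all 3 oligos. Promoters covered over at least 150 of their 300 bases numbered 31, 12 and 135 in place of 10, 1 and 63.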

Other observations

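The ends at small coordinates of chromosomes 13, 14, 15, 21 and 22, which carry the short arms with the ribosomal RNA genes in the cell and were not counted as chromosome ends here, held fewer captured than control regions in their outermost 2 Mb of listed sequence. MEG3 TFR1 had 114 captured and 149 control regions there, MEG3 TFR2 had 86 and 109, and the GATA6-AS oligo had 134 and 236. Summed over the 39 ends that were counted, captured regions outnumbered control regions with each oligo, although 3p (4 against 13) and 4q (21 against 22) had fewer captured than control regions with the GATA6-AS oligo.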
